A study of Mus musculus with 18 samples.

Results

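Spi1, Runx1, Gfi1, Irf8, Klf4, Id2, Bcl6 and Nfam1 are 8 genes grouped here as regulators of granulocyte and monocyte fate. They were picked by symbol, and each was found in both expression tables, 8 of 19780 genes in the LSK table and 8 of 18428 in the CMP table. RNA was sequenced from bone marrow cells of female mice that were sorted as LSK (Lin−Sca-1+c-Kit+, the compartment of stem and early progenitor cells) or as CMPs (common myeloid progenitors). NZBW/F1 mice, a cross of the NZB and NZW strains, develop a lupus-like disease spontaneously, and C57BL/6 mice were the controls. F1-P mice were NZBW/F1 at the preclinical stage, aged 12 weeks, and F1-L mice were NZBW/F1 with proteinuria, aged 28 to 36 weeks. B6-Y and B6-O were C57BL/6 mice aged 12 weeks and 28 to 36 weeks. There were 12 LSK samples, 3 a group, and 6 CMP samples, 3 from each of the NZBW/F1 stages. Disease and age cannot be told apart between F1-L and F1-P, and CMPs of C57BL/6 mice were not analysed here. No mouse carried a transgene or a targeted allele by its labels, and no treatment is given. The labels do not say that the samples came from separate mice, so p-values measure only the spread between these samples. By the wording of the study, each CMP sample may have been a pool of mice.

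PU.1, the product of Spi1, and RUNX1 open the enhancers of blood progenitors, and the dose of PU.1 biases cells between the neutrophil and the macrophage path. GFI1 is a repressor that holds down monocyte genes and allows neutrophils to form, whereas IRF8 pairs with PU.1 at composite sites and directs cells towards monocytes and dendritic cells, with KLF4 acting further along the monocyte path. ID2 binds E proteins and keeps them off DNA, BCL6 represses the transcription of activation and differentiation genes, and NFAM1 is a membrane receptor with an activation motif (ITAM) that signals through SYK to NFAT.

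On the mouse genome (GRCm38, the assembly of mm10, with GENCODE M21 genes) Spi1 lies on chromosome 2 from 91082390 to 91115756, Runx1 on chromosome 16 from 92601466 to 92826149, and Gfi1 on chromosome 5 from 107716657 to 107726036. Irf8 lies on chromosome 8 from 120736358 to 120756694, Klf4 on chromosome 4 from 55527143 to 55532466, and Id2 on chromosome 12 from 25093799 to 25097140. Bcl6 lies on chromosome 16 from 23965052 to 23988852 and Nfam1 on chromosome 15 from 82992973 to 83033306. Values are reads over the exons of each gene.

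Promoter windows of RefSeq (GRCm38.p6, around transcript starts, mostly upstream) were available for 7 of the 8 genes, Spi1 being the exception, in 13 windows. Those of 3 genes that were lower in F1-P than in B6-Y (Irf8, Bcl6, Nfam1) and of the gene with the largest positive difference (Id2) are shown as examples of called genes, chosen after their values were seen. Capitals mark matches to 5 motifs that were searched on both strands.
Irf8, chr8:120736108-120736407, plus strand: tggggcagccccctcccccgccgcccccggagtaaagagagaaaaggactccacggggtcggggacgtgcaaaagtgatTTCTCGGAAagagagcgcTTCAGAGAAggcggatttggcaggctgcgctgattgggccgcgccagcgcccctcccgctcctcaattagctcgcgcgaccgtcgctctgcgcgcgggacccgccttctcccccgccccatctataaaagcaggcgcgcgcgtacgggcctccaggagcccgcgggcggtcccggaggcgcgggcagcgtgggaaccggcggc
Bcl6, chr16:23981234-23981533, minus strand: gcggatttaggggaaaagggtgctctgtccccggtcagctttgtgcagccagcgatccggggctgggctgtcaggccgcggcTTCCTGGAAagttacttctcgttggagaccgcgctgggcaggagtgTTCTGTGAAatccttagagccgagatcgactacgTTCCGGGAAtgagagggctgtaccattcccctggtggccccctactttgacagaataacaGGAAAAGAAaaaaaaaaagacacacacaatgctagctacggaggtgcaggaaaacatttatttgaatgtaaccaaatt
Nfam1, chr15:83033348-83033647, minus strand: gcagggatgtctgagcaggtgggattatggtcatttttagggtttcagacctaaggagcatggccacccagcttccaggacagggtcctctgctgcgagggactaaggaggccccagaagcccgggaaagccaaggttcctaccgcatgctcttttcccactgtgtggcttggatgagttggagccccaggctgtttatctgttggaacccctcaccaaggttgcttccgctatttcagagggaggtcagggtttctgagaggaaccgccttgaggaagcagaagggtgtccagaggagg
Id2, chr12:25096043-25096342, minus strand: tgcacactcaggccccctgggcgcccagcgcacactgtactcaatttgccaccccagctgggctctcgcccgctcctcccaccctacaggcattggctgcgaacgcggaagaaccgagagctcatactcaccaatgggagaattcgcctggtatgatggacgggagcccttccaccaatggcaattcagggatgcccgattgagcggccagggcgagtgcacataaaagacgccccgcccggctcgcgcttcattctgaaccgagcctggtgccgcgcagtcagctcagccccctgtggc
The Irf8 window holds 2 matches to the STAT motif TTCNNNGAA, and the Bcl6 window holds 3 of them and 1 match to the ETS-IRF composite motif GGAANNGAA. The Nfam1 and Id2 windows shown held 0 matches to any motif. Of the other windows, 1 of Bcl6 (chr16:23988803-23989102) had 1 STAT match, 1 of Runx1 (chr16:92697280-92697579) had 2 ETS-IRF matches and 1 of Runx1 (chr16:92826025-92826324) had 2 matches to the RUNX motif TGTGGT. The window of Klf4 (chr4:55532426-55532725), a gene that was also called higher, had 0 matches. The other window of Irf8 (chr8:120738389-120738688) had 0 as well. The Bcl6 window shown lies inside the gene, and its other window spans the annotated start. In all, 5 of the 13 windows had a match, and these belonged to 3 genes. The share of all windows with a match to any of the 5 motifs was not counted, so this count has no background. Over all 32851 windows of the RefSeq table, the STAT motif was present in 8.30%, the ETS-IRF motif in 8.24%, the RUNX motif in 16.8%, the PU.1 motif GAGGAAGT in 3.20% and the IRF motif GAAANNGAA in 8.56%. The letters of the motifs do not overlap in the windows shown.

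Each LSK library held 23772252 to 28493747 reads and each CMP library 20001328 to 24761060, and a single gene of the 8 had 35 to 12213 reads in a library. The Poisson counting error of a library was 0.971% to 11.4% of a gene's level and lay below the SD between replicates in 47 of 48 pairs of gene and group, Runx1 in F1-L LSK being the exception. Values are CPM, reads scaled to a common library size. The tables were scaled separately, so differences were tested only within a table. Transcripts that mark other cell types were measured in the libraries, although the sort excluded cells with CD11b, Gr-1, Ter119, B220 or CD16/32 on the surface. The summed CPM of 11 mature neutrophil markers (Ngp, Camp, Ltf, S100a8 and others) was 12373, 4905 and 1983 in F1-L LSK, 301, 526 and 1281 in F1-P LSK, 499, 5441 and 485 in B6-Y, and 1736, 832 and 10719 in B6-O. In CMPs it was 315, 6453 and 8442 in F1-P and 85.8, 64.2 and 431 in F1-L. F1-L replicate 1, B6-Y replicate 2 and B6-O replicate 3 of LSK and F1-P replicates 2 and 3 of CMPs therefore stand apart, and the main results are also given without the library highest in these markers in each group, an alternative chosen after seeing the data. The libraries left still differ in these sums, such as 4905 and 1983 in F1-L LSK against 301 and 526 in F1-P LSK. The share of reads on immunoglobulin genes was 16.8% to 36.6% in NZBW/F1 LSK, 0.301% to 4.76% in C57BL/6 LSK and 0.0152% to 0.255% in CMPs. The summed CPM of 7 T and NK cell markers was 160 to 362 in NZBW/F1 LSK, 43.5 to 102 in C57BL/6 LSK and 11.1 to 43.8 in CMPs. The summed CPM of 6 mast cell and basophil markers was 11.6 to 48.9 in LSK and 12.1 to 46.2 in CMPs, that of 6 stem cell markers 227 to 564 and 86.6 to 142, and that of 8 erythroid and megakaryocytic markers 93.8 to 530.1 in 11 LSK libraries, 1308 in F1-P LSK replicate 3 and 1859 to 4513 in CMPs. Of the gate genes, Kit had a CPM of 257 to 657 in LSK and 416 to 668 in CMPs. Ly6a, the gene of Sca-1, had 293 to 879 in NZBW/F1 LSK and 35.5 to 113 in C57BL/6 LSK, which did not overlap. In CMPs it had 1.14 to 6.70, although the methods print the CMP gate as Sca-1+. Cd34 had 169 to 295 in NZBW/F1 LSK, 462 to 751 in C57BL/6 LSK and 154 to 572 in CMPs.

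All 8 genes were detected in every library. Per kilobase of exon, the order of mean levels in B6-Y LSK was Irf8 (49.5 CPM per kb), Spi1 (42.6), Klf4 (35.0), Runx1 (15.3), Gfi1 (14.7), Nfam1 (11.9), Id2 (10.0) and Bcl6 (2.64). In F1-P LSK the order was Klf4 (63.5 CPM per kb), Irf8 (27.9), Id2 (27.3), Spi1 (22.2), Gfi1 (18.5), Runx1 (9.90), Nfam1 (5.79) and Bcl6 (1.37). In B6-Y the range of Klf4 (22.9 to 50.7 CPM per kb) overlapped those of Irf8 (45.2 to 53.7) and Spi1 (41.2 to 45.1), and in F1-P Klf4 lay above the other genes. Irf8, Id2 and Spi1 of F1-P, with ranges of 25.1 to 30.3, 21.8 to 30.7 and 19.3 to 24.0 CPM per kb, overlapped with the gene next to them in this order. In F1-L CMPs the level of Irf8 (22.0 CPM per kb) and Spi1 (19.2) came first and Id2 (1.67) and Bcl6 (0.556) last.

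The comparison of F1-P with B6-Y asks how progenitors of lupus-prone mice differ from those of controls before disease. Of the 8 genes 6 passed the thresholds, which were a limit of 0.05 on the adjusted p and of 1.5 on the fold change (limma on log2(CPM + 1), Benjamini-Hochberg adjustment over 14380 genes). Of these, 4 were lower in F1-P (Spi1, Irf8, Nfam1, Bcl6) and 2 higher (Id2, Klf4). Over all genes tested 16.2% passed, 10.0% higher and 6.18% lower. At an unadjusted p below 0.05 there were 7 of 8 genes against 31.3% of all. The values of the groups did not overlap for 7 of the 8 genes, against 35.5% of all genes tested. Without the library highest in neutrophil markers in each group, 5 of the 8 genes passed, against 8.06% of all genes, and Bcl6 was the one that no longer did (−0.76). The median log2 fold change of the 8 genes was −0.73 and that of all genes −0.04. Of the 5 gate genes, Ly6a was called higher in F1-P (log2 fold change 3.53) and Cd34 lower (−1.28). The summed CPM of 11 B lineage and plasma cell markers was 13829 to 34762 in F1-P and 1126 to 1981 in B6-Y. By sign 6 of these markers were higher in F1-P and 5 lower. Immunoglobulin genes took 19.2%, 36.6% and 35.1% of reads in F1-P and 0.918%, 2.86% and 2.85% in B6-Y. The part of the gate genes and of such cells in the differences of the 8 genes was not tested. In sorted populations, fewer cells that express a gene and less RNA of it per cell cannot be told apart.

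Spi1, the gene of PU.1, had a CPM of 63.1, 52.1 and 64.6 in F1-P and 112, 111 and 122 in B6-Y, that is 59.9 ± 6.86 (SD, n = 3) against 115 ± 5.82 (SD, n = 3). Every F1-P library lay below every B6-Y library. The log2 fold change was −0.93 (SE 0.13, limma adjusted p = 0.00256), which means 1.91-fold lower. The call held in 6 of 6 fits that left out 1 library and in 11 of 11 other alternatives.

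Irf8, the monocyte and dendritic factor, had a CPM of 201, 177 and 214 in F1-P and 379, 319 and 350.4 in B6-Y. The groups were apart by more than their spread, with means of 197 ± 18.7 and 349 ± 29.8 (SD, n = 3). It was lower by a log2 fold change of −0.82 (SE 0.14, limma adjusted p = 0.00604). It passed without each library in turn and in 10 of 11 alternatives, but not when all 12 LSK samples shared 1 estimate of the spread (adjusted p = 0.25). Of 6 markers of plasmacytoid dendritic cells, in which Irf8 is also high, 5 were tested. Siglech (log2 fold change −1.49) and Cox6a2 (−1.01) were called lower in F1-P and Ccr9 (1.35) higher, and the summed CPM of the 6 was 282 to 343 in F1-P and 275 to 360.4 in B6-Y. Their part in the Irf8 difference was not tested.

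Nfam1, the ITAM receptor, had a CPM of 45.8, 35.8 and 56.8 in F1-P and 82.8, 123 and 78.7 in B6-Y. The highest B6-Y library was replicate 2, which was also the B6-Y library highest in neutrophil markers. The log2 fold change was −1.02 (SE 0.22, limma adjusted p = 0.0184), a 2.03-fold lower level. It passed in all 11 alternatives, the one without the libraries highest in neutrophil markers among them, but not without F1-P replicate 2 (adjusted p = 0.076).

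Bcl6, the repressor, had the lowest level of the 8 genes per kilobase, with a CPM of 8.99, 8.17 and 10.4 in F1-P and 18.9, 22.0 and 12.1 in B6-Y. Every F1-P library was below the lowest B6-Y library, though by a small margin. The log2 fold change of −0.84 (SE 0.24, limma adjusted p = 0.0468) sat at the threshold, and it passed in 1 of the 6 fits without 1 library, the one without B6-Y replicate 3, and in 4 of 11 alternatives.

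Id2, the inhibitor of E proteins, was the member with the largest difference. Its CPM was 71.6, 74.8 and 53.2 in F1-P and 15.7, 33.6 and 24.1 in B6-Y, and the lowest F1-P library was above the highest B6-Y library. The log2 fold change was 1.45 (SE 0.27, limma adjusted p = 0.00883), a 2.74-fold higher level, and the call held in 6 of 6 fits without 1 library and in 11 of 11 alternatives. Id2 is also expressed by NK cells, and 6 of the 7 T and NK cell markers were called higher in F1-P, with Ncr1 at 55.5 to 84.9 CPM in F1-P and 3.06 to 4.86 in B6-Y. Their part in the Id2 difference was not tested.

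Klf4, the monocyte factor, had a CPM of 194, 203 and 183 in F1-P, which varied little, and 69.7, 154 and 95.7 in B6-Y, which varied more. The groups did not overlap. The log2 fold change was 0.93 (SE 0.26, limma adjusted p = 0.0459), and the call held in 8 of 11 alternatives but in 1 of 6 fits without 1 library, the one without B6-Y replicate 2.

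Runx1 and Gfi1 did not pass. Runx1 had a CPM of 157, 99.5 and 101 in F1-P and 226, 169 and 156 in B6-Y, and replicate 1 was the highest of each group, with F1-P replicate 1 at the level of the lowest B6-Y library. Its log2 fold change was −0.64 (SE 0.22, limma adjusted p = 0.0875, 95% interval −1.15 to −0.13), and it passed without F1-P replicate 1 (adjusted p = 0.0240). Gfi1, the granulocyte factor, had a CPM of 51.8, 66.3 and 58.6 in F1-P and 42.5, 48.5 and 49.8 in B6-Y. All F1-P libraries were above all B6-Y libraries, by a log2 fold change of 0.32 (SE 0.14, limma adjusted p = 0.167).

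**Figure D1:**
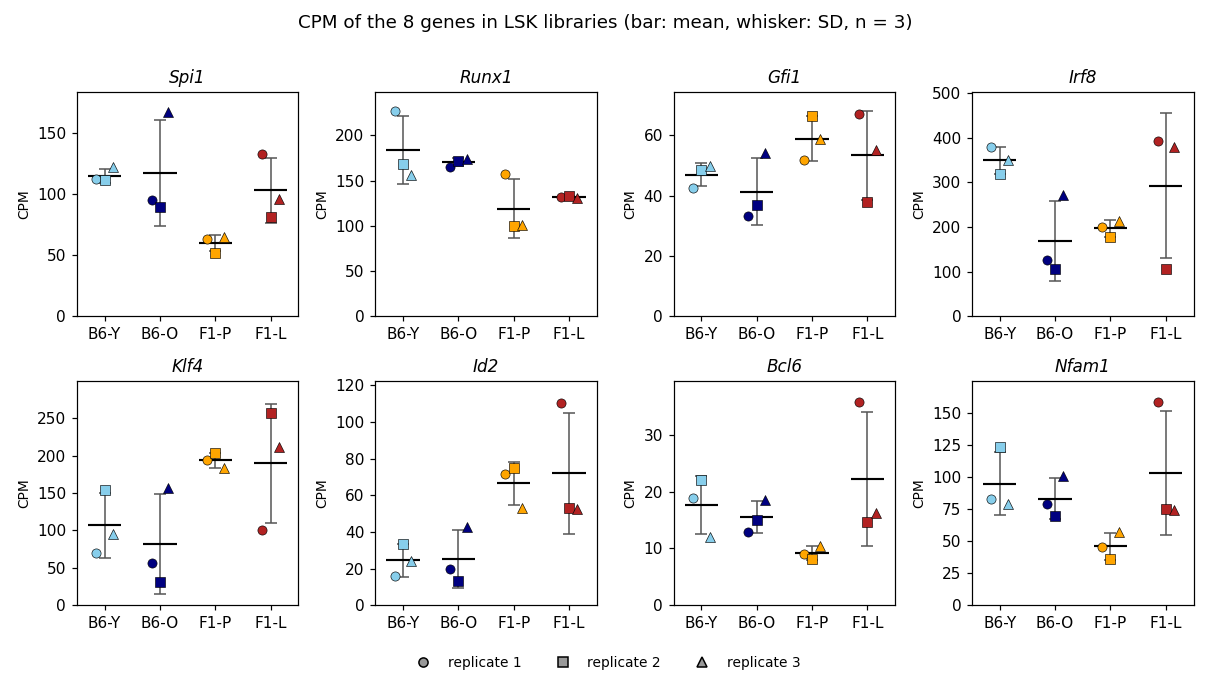
CPM of the 8 genes in each LSK library of B6-Y, B6-O, F1-P and F1-L, with 1 panel a gene and a y axis that starts at 0. Points are libraries, the bar is the mean and the whisker the SD of 3 replicates; the F1-P points of Spi1 (52.1 to 64.6), Nfam1 (35.8 to 56.8) and Bcl6 (8.17 to 10.4) lie below all points of the other groups.

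F1-L and B6-O are the older mice, and the question was whether the strains also differ at the stage of disease. In limma 0 of the 8 genes passed, against 11.6% of all genes. At an unadjusted p below 0.05, 3 of the 8 genes differed (Id2, Klf4, Runx1), against 27.5% of all genes, and 2 of the 8 had groups that did not overlap (Id2, Runx1), against 37.4%. Id2 was called by edgeR's likelihood ratio test and by DESeq2, which called 1 of the 8 genes each, against 14.6% and 15.8% of all genes. In limma, 2 of the 8 genes passed without the libraries highest in neutrophil markers (Id2, Klf4), against 13.1%. Of the gate genes, Ly6a was called higher in F1-L (log2 fold change 2.68) and Cd34 lower (−1.375), and their part was not tested.

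Id2 had a CPM of 110.2, 53.3 and 52.2 in F1-L and 19.6, 13.2 and 42.9 in B6-O. The highest library of each group (F1-L replicate 1, B6-O replicate 3) was also the one highest in neutrophil markers. The log2 fold change was 1.55 (SE 0.46, limma adjusted p = 0.075), and Id2 passed without B6-O replicate 3 (adjusted p = 0.0132) and without the libraries highest in neutrophil markers (adjusted p range over the alternatives 0.00532 to 0.103). Klf4 had a CPM of 101, 256 and 211 in F1-L and 56.5, 30.8 and 157 in B6-O, so its groups overlapped through the same 2 libraries. Its log2 fold change was 1.42 (SE 0.60, limma adjusted p = 0.179), and it was 2.05 and past the thresholds without B6-O replicate 3 (adjusted p = 0.0236), and 2.45 without the libraries highest in neutrophil markers.

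Runx1 was the least variable gene here, with a CPM of 132, 133 and 130.4 in F1-L and 165, 171 and 174 in B6-O. All F1-L libraries were lower, by a log2 fold change of −0.37 (SE 0.11, limma adjusted p = 0.0724), which is a fold of 1.29 and under the fold threshold. Spi1 was at 132, 80.7 and 96.2 in F1-L and 94.9, 89.4 and 167 in B6-O, with overlapping groups and a log2 fold change of −0.15 (95% interval −0.82 to 0.52). The other genes, Gfi1 (0.35), Irf8 (0.70), Bcl6 (0.39) and Nfam1 (0.23), had positive log2 fold changes with intervals that included 0.

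The comparison of F1-L with F1-P asks what distinguishes diseased from preclinical NZBW/F1 mice. None, that is 0 of the 8 genes, passed the thresholds in limma, where 0.0279% of all genes did. At an unadjusted p below 0.05 there were 3 of 8 (Spi1, Bcl6, Nfam1), all higher in F1-L, against 12.8% of all genes. The same 3 genes had groups that did not overlap, against 17.7% of all genes. The likelihood ratio test of edgeR called these 3 genes and 4.60% of all genes, DESeq2 called them and 5.12%, and edgeR's quasi-likelihood test called 0 of the 8 and 0.0209%. Without the libraries highest in neutrophil markers, 0 of the 8 genes passed in limma, against 0.0433% of all, and 4 had an unadjusted p below 0.05, against 13.3%. These were Spi1 (0.61), Bcl6 (0.78), Nfam1 (0.87) and Id2 (−0.46). That fit keeps F1-L libraries with marker sums of 4905 and 1983 and F1-P libraries with sums of 301 and 526.

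Spi1 had a CPM of 132, 80.7 and 96.2 in F1-L but 63.1, 52.1 and 64.6 in F1-P. The log2 fold change of Spi1 was 0.75 (SE 0.19, limma adjusted p = 0.198) and stayed between 0.56 and 0.91 with each library left out. Bcl6 had a CPM of 35.8, 14.6 and 16.2 in F1-L but 8.99, 8.17 and 10.4 in F1-P, and its log2 fold change was 1.08 (SE 0.32, limma adjusted p = 0.249). Nfam1 had a CPM of 159, 75.5 and 74.5 in F1-L but 45.8, 35.8 and 56.8 in F1-P, and its log2 fold change was 1.07 (SE 0.32, limma adjusted p = 0.242). F1-L replicate 1 was far above the other F1-L libraries for Bcl6 and Nfam1, and it was the library highest in neutrophil markers. Leaving out 1 library at a time gave 0.69 to 1.31 for Bcl6 and 0.71 to 1.25 for Nfam1. All 11 neutrophil markers were higher in F1-L at an unadjusted p below 0.05 (median log2 fold change 3.00), and PU.1, BCL6 and NFAM1 are also expressed in mature myeloid cells. All 11 B lineage and plasma cell markers were lower in F1-L, 7 of them at an unadjusted p below 0.05. Their median log2 fold change was −1.11, and their summed CPM was 8598 to 11463 in F1-L and 13829 to 34762 in F1-P. The part of neutrophil RNA and of B lineage and plasma cell RNA in these differences was not tested.

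Irf8 was the most variable of the 8 genes within F1-L, with a CPM of 394, 106 and 378 against 201, 177 and 214 in F1-P. F1-L replicate 2 lay below, and replicates 1 and 3 above, all F1-P libraries, and the log2 fold change of 0.35 (SE 0.48) ranged from 0.03 to 0.97 with each library left out. Gfi1 (67.1, 37.7 and 55.2 CPM in F1-L, log2 fold change −0.17), Runx1 (0.18), Klf4 (−0.13) and Id2 (0.04) overlapped between the stages.

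**Figure D2:**
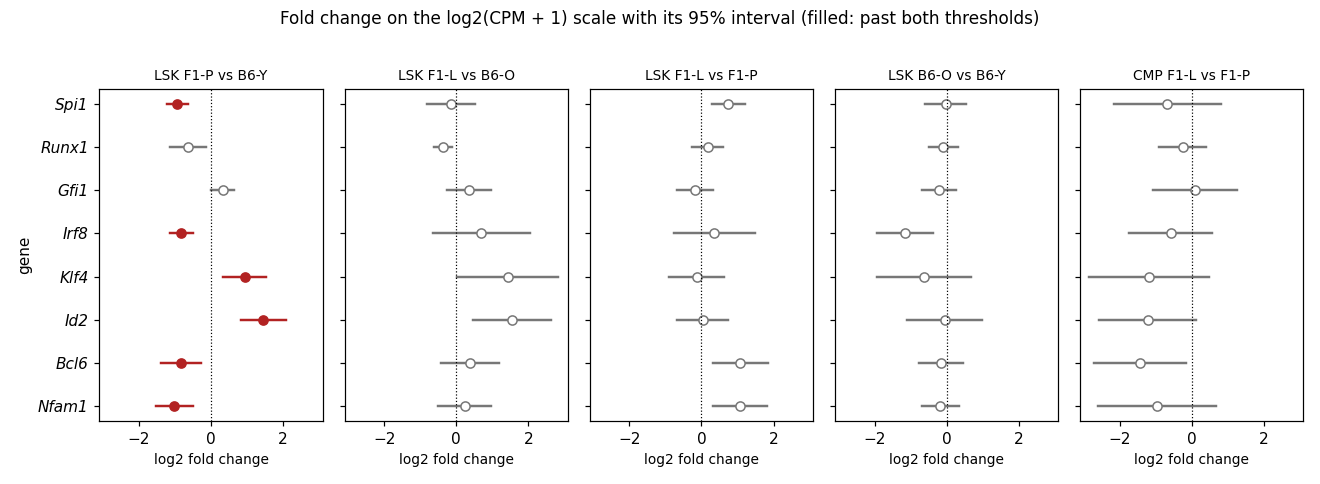
Log2 fold change of the 8 genes on the log2(CPM + 1) scale in 4 LSK comparisons and 1 CMP comparison, with the first group named over the second. The line is the 95% interval of limma and filled red points passed both thresholds, which 6 of 8 genes did in F1-P vs B6-Y and 0 in the other 4 panels.

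In C57BL/6 mice, B6-O against B6-Y is the age difference without lupus. Past the thresholds in limma were 0 of the 8 genes, where 0.00% of all 14005 genes did. With an unadjusted p below 0.05 only Irf8 differed, 1 of 8 genes against 6.62% of all, and 1 of 8 genes had groups that did not overlap, against 11.3%. Irf8 had a CPM of 127, 107 and 271 in B6-O and 379, 319 and 350.4 in B6-Y, so that every older library was below every younger one. Its log2 fold change was −1.17 (SE 0.33, limma adjusted p = 0.444) and −1.57 without B6-O replicate 3, where it passed (adjusted p = 0.0187). It was −1.64 without the libraries highest in neutrophil markers and passed, the 1 gene of the 8 to do so, against 0.426% of all genes. B6-O replicate 3 was the library of its group highest in Spi1, Gfi1, Irf8, Runx1, Klf4, Id2, Bcl6 and Nfam1 alike, and also in neutrophil markers. The other 7 genes had log2 fold changes of −0.63 (Klf4) to −0.03 (Spi1).

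Whether the difference between older and younger mice itself differed between the strains was tested as an interaction over the 12 LSK samples. Of the 8 genes 0 passed after adjustment, against 0.00% of 15084 genes. With an unadjusted p below 0.05 there were 4 of 8 (Nfam1, Bcl6, Irf8, Spi1), against 3.92% of all genes, each more positive in NZBW/F1 than in C57BL/6. The log2 difference was 1.25 for Nfam1 (SE 0.42), 1.23 for Bcl6 (SE 0.44), 1.52 for Irf8 (SE 0.64) and 0.78 for Spi1 (SE 0.33), each with an adjusted p of 0.976 in limma. For Nfam1 and Bcl6 the unadjusted p stayed below 0.05 in 12 of 12 fits without 1 library, for Spi1 in 5 of 12 and for Irf8 in 4 of 12. Without the libraries highest in neutrophil markers, 0 of the 8 genes passed and 5 had an unadjusted p below 0.05, against 5.13% of all genes. They were Spi1 (0.95), Irf8 (1.73), Klf4 (1.18), Bcl6 (0.89) and Nfam1 (1.00). That fit keeps marker sums of 4905 and 1983 in F1-L and 301 and 526 in F1-P. In C57BL/6 it keeps 1736 and 832 in B6-O and 499 and 485 in B6-Y. The Irf8 value combines a log2 fold change of −1.17 in C57BL/6 with 0.35 in NZBW/F1. The same F1-P LSK libraries enter this test, F1-P vs B6-Y and F1-L vs F1-P. For Spi1, Bcl6 and Nfam1 these results are therefore not separate observations.

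In CMPs, the next stage on the myeloid path, 7 of the 8 genes were lower in F1-L than in F1-P, but the groups overlapped for each gene. Of the 8 genes 0 passed the thresholds in limma, against 0.00774% of 12926 genes. With an unadjusted p below 0.05 there was 1 of 8 (Bcl6) against 9.80%, and 0 of 8 genes had groups that did not overlap, against 16.0%. The median log2 fold change of the 8 genes was −0.83 and that of all genes 0.04.

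Bcl6 had a CPM of 3.46, 3.05 and 4.68 in F1-L and 4.27, 18.4 and 19.0 in F1-P. Klf4 had 11.4, 19.0 and 24.7 in F1-L but 12.9, 86.3 and 60.6 in F1-P, and Id2 had 4.50, 1.81 and 5.87 in F1-L and 4.08, 13.4 and 17.4 in F1-P. In all 3 genes F1-P replicate 1 lay among the F1-L libraries, whereas replicates 2 and 3 were above them. Nfam1 followed the same order, with 48.9, 20.0 and 55.7 CPM in F1-L and 27.8, 103 and 151 in F1-P. The log2 fold changes were −1.44 for Bcl6 (SE 0.53, limma adjusted p = 0.485), −1.22 for Id2 (SE 0.56), −1.18 for Klf4 (SE 0.69) and −0.98 for Nfam1 (SE 0.68). Without F1-P replicate 1, Bcl6 and Klf4 passed the thresholds, with log2 fold changes of −2.07 (adjusted p = 0.0114) and −1.98 (adjusted p = 0.0357), and 434 of all genes passed then. Without the libraries highest in neutrophil markers (replicate 3 of each group), 0 of the 8 genes had an unadjusted p below 0.05, against 2.89% of all genes, and the log2 fold changes were −1.25 for Bcl6 and −1.15 for Klf4. That fit keeps F1-P replicate 2, whose marker sum was 6453. F1-P replicates 2 and 3 were the CMP libraries highest in neutrophil markers, and all 11 of these markers were lower in F1-L at an unadjusted p below 0.05 (median log2 fold change −4.21). Their part in the values of the 8 genes was not tested.

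Spi1 had a CPM of 56.7, 23.8 and 74.9 in F1-L CMPs and 33.4, 92.9 and 139 in F1-P CMPs, with a log2 fold change of −0.68 (95% interval −2.17 to 0.80). Irf8 had 169, 87.1 and 209 against 139, 183 and 410.4, a log2 fold change of −0.58 (−1.74 to 0.57), and Runx1 150.2, 92.7 and 120.1 against 102, 147 and 192, a log2 fold change of −0.26 (−0.91 to 0.39). Gfi1, with 28.3, 11.3 and 32.8 CPM in F1-L and 12.3, 22.3 and 31.6 in F1-P, was the 1 gene with a positive log2 fold change, 0.09 (−1.07 to 1.25). F1-L replicate 2 was the lowest F1-L library in 7 of the 8 genes, Klf4 being the exception.

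**Figure D3:**
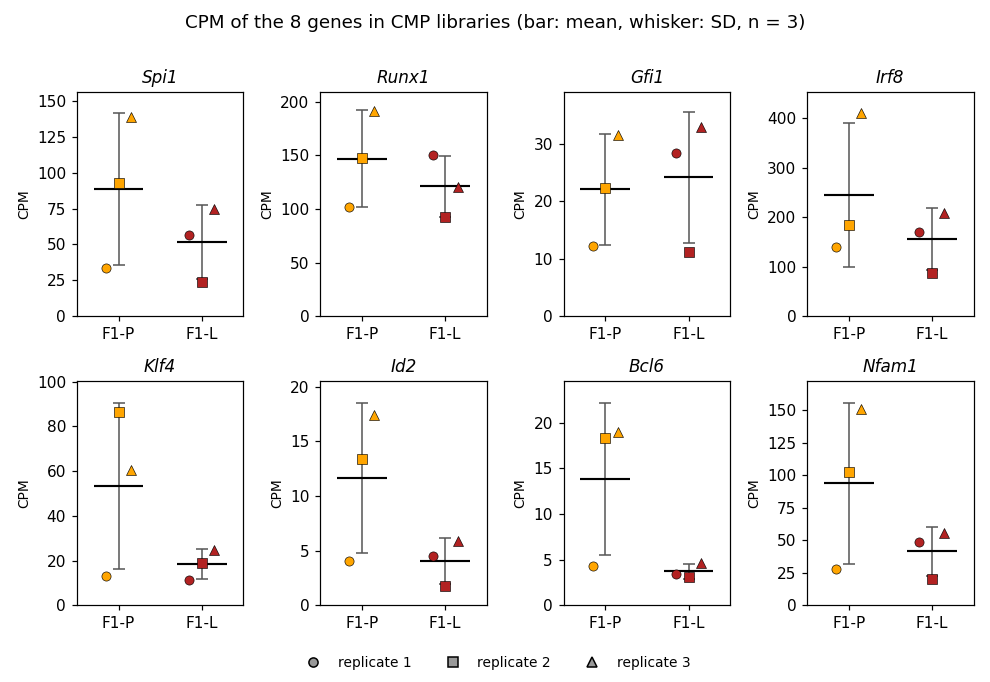
CPM of the 8 genes in each CMP library of F1-P and F1-L, with 1 panel a gene and a y axis that starts at 0; points are libraries, the bar is the mean and the whisker the SD of 3 replicates. F1-P replicate 1 (circle) lies at 4.27 CPM for Bcl6 and 27.8 for Nfam1, within the range of F1-L, while replicates 2 and 3 lie above it.

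The difference between F1-L and F1-P in LSK was set against that in CMPs as an interaction, with each table on its own scale. Of the 8 genes 0 passed after adjustment, against 0.00% of 14526 genes, and 2 of 8 had an unadjusted p below 0.05, against 7.90%. Bcl6 was higher in F1-L LSK and lower in F1-L CMPs, a difference of 2.52 on the log2 scale (SE 0.67, limma adjusted p = 0.309). Nfam1 did the same with a difference of 2.05 (SE 0.81, adjusted p = 0.55). Bcl6 was called by edgeR's likelihood ratio test and by DESeq2, and both genes passed in limma without F1-P CMP replicate 1 (adjusted p = 0.00354 for Bcl6 and 0.0294 for Nfam1), when 531 of all genes did. The differences were 2.03 and 1.63 without the libraries highest in neutrophil markers, and 0 of the 8 genes passed. That fit keeps F1-L LSK libraries with marker sums of 4905 and 1983 and F1-P CMP replicate 2 with 6453. The neutrophil markers were higher in F1-L LSK and lower in F1-L CMPs as well, and their part in the difference was not tested.

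**Figure D4:**
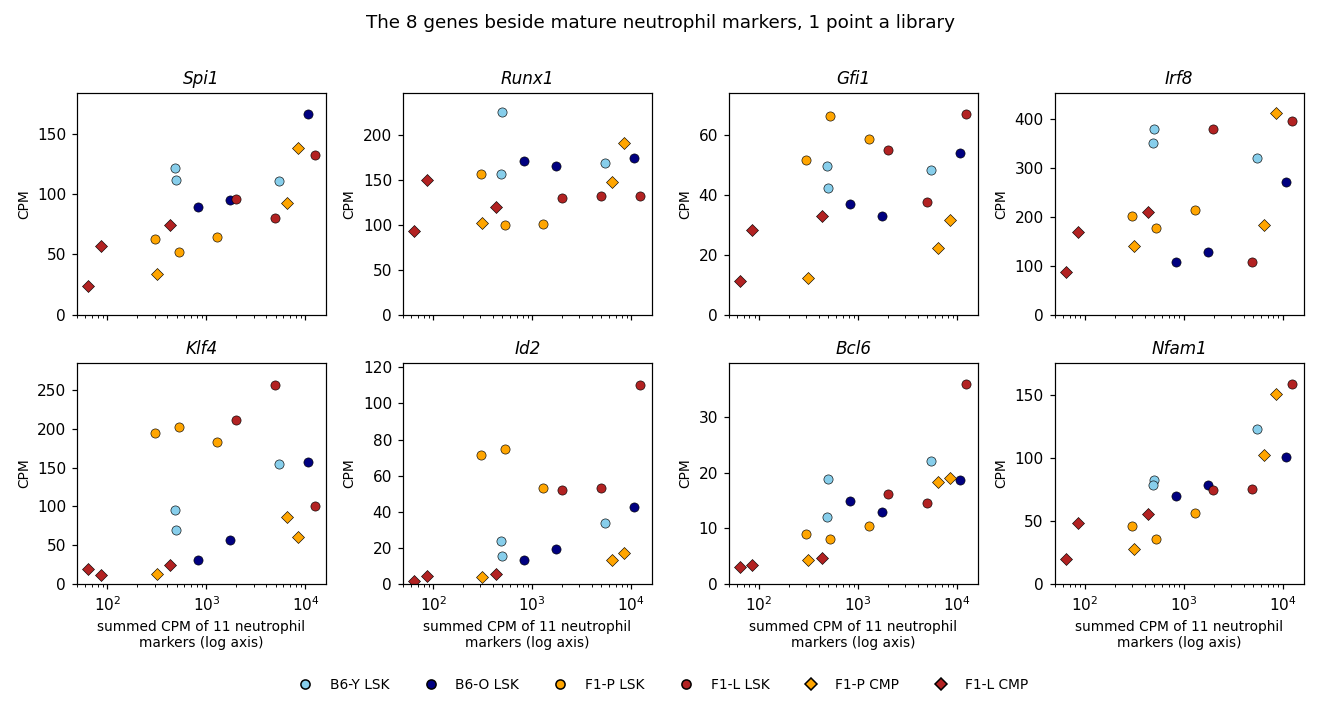
CPM of each gene (y axis, from 0) against the summed CPM of 11 mature neutrophil markers (x axis, log scale) in 18 libraries, circles for LSK and diamonds for CMPs, coloured by group. The library with the highest sum, F1-L LSK replicate 1 at 12373, also has the highest value of Bcl6 (35.8), Nfam1 (159) and Id2 (110.2), whereas Klf4 and Id2 of F1-P LSK are high at sums of 301 to 1281.

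Further genes were taken from lists of the granulocyte programme, the monocyte and dendritic programme, PU.1 targets, paralogs, partner proteins and other fate factors, which overlap in part. Whether the 8 genes regulate them in these cells was not tested. Between F1-P and B6-Y, 3 of 10 granulocyte programme genes were called lower and 0 higher, where 6.18% of all genes were called lower, with a list median log2 fold change of −0.91 against −0.04 for all genes. These were Csf3r, the receptor of G-CSF (log2 fold change −1.10, adjusted p = 0.0112 in limma), Gstm1, a glutathione transferase (−1.12, adjusted p = 0.0172), and Cebpa, the factor that drives granulocyte commitment (−0.99, adjusted p = 0.0306). Of 12 PU.1 targets, 11 were tested and 2 were called lower, Csf3r and Ncf1, a subunit of the phagocyte oxidase (−1.09, adjusted p = 0.0315), with a list median of −0.77. Csf1r, the receptor of M-CSF, had a log2 fold change of −1.26 and missed the threshold (adjusted p = 0.0673).

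In the monocyte and dendritic list, 13 of 14 genes were tested between F1-P and B6-Y, 2 were called higher and 1 lower. By sign alone 6 were higher and 7 lower, with a list median log2 fold change of −0.44. The monocyte antigen gene Ly6c2 (log2 fold change 3.06, adjusted p = 0.00143) and Irf4, a paralog of Irf8 that B lineage and plasma cells also express (2.72, adjusted p = 0.00365), were higher, and Cx3cr1, the fractalkine receptor, was lower (−0.82, adjusted p = 0.0412). Ly6c2 and Irf4 stood beside a summed CPM of 11 B lineage and plasma cell markers of 13829 to 34762 in F1-P and 1126 to 1981 in B6-Y. This sum was 8598 to 11463 in F1-L, 215 to 2332 in B6-O and 21.5 to 354 in CMPs. The part of other cell types in Ly6c2 and Irf4 was not tested. Of the 12 paralogs, 1 was called higher (Irf4) and 2 lower, Runx2 (−0.91, adjusted p = 0.00411) and Spib, the gene of a close relative of PU.1 (−1.03, adjusted p = 0.0427). Of 16 partner proteins, 15 were tested and 0 were called in limma, and Hdac1, a histone deacetylase recruited by GFI1, had a log2 fold change of −0.44 (adjusted p = 0.0681) and the NFAT gene Nfatc2 of −0.47. Of 22 other fate factors 5 were called lower and 0 higher, among them Meis1 (−1.12, adjusted p = 0.00244), Gata2 (−0.99, adjusted p = 0.019) and Lmo2 (−0.82, adjusted p = 0.0276), which act in stem cells.

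Between F1-L and F1-P in LSK, 0 genes of the 6 lists were called in limma. With an unadjusted p below 0.05, 7 of 10 granulocyte genes, 7 of 12 PU.1 targets and 8 of 22 other fate factors were higher and 0 lower, against 12.8% of all genes in either direction, with list medians of 1.72, 1.08 and 0.39 against −0.01 for all genes. The lowest p belonged to Cebpa (log2 fold change 1.74), Cebpe, a factor of late granulocyte maturation (2.53), Csf3r (1.10), Fcgr1, the high-affinity Fc receptor (1.13), Lyz2, lysozyme (2.41), Itgam, the gene of CD11b (1.97), Zbtb16 (0.79) and Gata2 (1.48). Itgam is CD11b, against which the cells were sorted. All 11 neutrophil markers were also higher in F1-L at this p (median log2 fold change 3.00), and their part in the list counts was not tested. The list counts come from the main fit only. Of 14 monocyte and dendritic genes 4 were higher and 0 lower at this p, led by Cd14 (1.81), Tfec (1.12) and Csf1r (1.68). Of the paralogs 3 of 12 were higher, Gfi1b (0.88), Spic (0.64) and Id1 (1.20), and of the partner proteins 2 of 16 were lower, the E protein genes Tcf3 (−0.28) and Tcf4 (−0.34).

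Between F1-L and B6-O, 4 of 14 monocyte and dendritic genes were called higher and 0 lower, where 11.6% of all genes were called. They were Irf4 (log2 fold change 3.63), Cd14 (3.20), Ly6c2 (2.99) and the chemokine receptor gene Ccr2, which is the fourth and was named after its value was seen (1.88). Of the cell type markers, 4 of 11 for B lineage and plasma cells and 4 of 7 for T and NK cells were also called higher and 0 lower. The part of such cells in the list genes was not tested. The granulocyte list had 1 gene called lower, Gstm1 (−0.77, adjusted p = 0.0471 in limma), and 0 higher, and the PU.1 targets 1 higher, Cybb of the phagocyte oxidase (2.27, adjusted p = 0.0464). Of the 22 other fate factors 2 were called lower, Meis1 (−0.96) and Lmo2 (−0.83). Of the paralogs 1 of 12 was called, Irf4, and of the partner proteins 0 of 16, with 3 lower at an unadjusted p below 0.05 (Hdac1, Hdac2 and Kdm1a, at −0.43, −0.36 and −0.27).

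Between B6-O and B6-Y, 0 list genes were called in limma, and at an unadjusted p below 0.05 (6.62% of all genes) the monocyte and dendritic list had 1 gene higher (Tfec, 0.87) and 3 lower, among them Irf4 (−1.67) and Ly86 (−0.79). The paralogs had 1 higher (Gfi1b, 0.80) and 4 lower, among them Runx2 (−0.70), Irf4 and Spib (−1.74). The other lists held 0 (granulocyte), 1 (PU.1 targets, Csf1r at −1.01), 1 (partner proteins, Tcf4 at −0.63) and 3 such genes (other fate factors, Gata2 at 0.75, Tal1 at 0.56 and Meis1 at 0.35). In CMPs 0 list genes were called in limma. With an unadjusted p below 0.05 (9.80% of all genes), 2 PU.1 targets were lower in F1-L (Lyz2 at −2.84 and Itgam at −2.19), as were 3 paralogs (Irf4 at −2.95, Id3 at −1.55, Spib at −3.24), and of the other fate factors 3 were higher and 1 lower (Gata2 at 1.10, Myc at 0.63, Egr2 at −1.33). The monocyte and dendritic list had 2 lower (Irf4 and Cd14, −1.88) and the granulocyte and partner lists 0. All 11 neutrophil markers were lower in F1-L CMPs at this p as well, and their part in the list counts was not tested.

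In the age interaction, 0 list genes were called in limma, and at an unadjusted p below 0.05 (3.92% of all genes) the genes that were more positive in NZBW/F1 numbered 2 of 10 (granulocyte, Cebpa at 1.69 and Csf3r at 0.87), 4 of 14 (monocyte and dendritic, led by Csf1r at 2.69), 6 of 12 (PU.1 targets, led by Fcgr1 at 1.12), 4 of 12 (paralogs, led by Spic at 0.81), 0 of 16 (partner proteins) and 1 of 22 (other fate factors, Cebpa), with 0 in the other direction. In the LSK against CMP difference (7.90% of all genes) these counts were 4, 6, 9, 4, 1 and 5, again with 0 in the other direction and 0 called, and Lyz2 (5.25), Itgam (4.16) and Fcnb (5.14) were among them. The median of all genes was −0.00 and −0.03 in these interactions, and list medians were 1.48 and 1.92 for the granulocyte programme and 1.10 and 1.96 for PU.1 targets. Neutrophil markers had medians of 1.76 and 7.21 in the same 2 interactions, and their part in the list values was not tested.

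The genes most like Spi1, Gfi1 and Irf8 in pattern were found by Pearson's correlation of log2(CPM + 1) over the 12 LSK samples among 11325 genes, as a description. The samples fall into the study's groups, and differences between groups are part of the correlation. Among the nearest to Spi1 were Cdkn2d (r = 0.964) and Rin3 (0.947). The nearest to Gfi1 were Donson (r = 0.934), Dtx2 (0.928) and Lpxn (0.926). The nearest to Irf8 were Siglech (r = 0.972), Kmo (0.958) and Otulinl (0.946), and Siglech is a marker of plasmacytoid dendritic cells, in which Irf8 is also high. The summed CPM of 6 markers of these cells, Siglech among them, was 290.0, 173 and 280.1 in F1-L and 204, 190 and 187 in B6-O, beside 282, 343 and 286 in F1-P and 344, 360.4 and 275 in B6-Y. F1-L replicate 2, the F1-L library lowest in Irf8 (106 CPM), was also the lowest of its group in this sum. Their part in the Irf8 values was not tested.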

How the data were processed

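RNA of sorted LSK (12 samples) and CMPs (6 samples) was sequenced as single-end reads, which the authors aligned with STAR 2.6 to mm10, counted per gene with HTSeq and normalised with edgeR. The deposited values are a signal, CPM of a scaled library size: column totals were 832403 to 1387186 (LSK) and 967456 to 1033223 (CMPs). Within a tolerance of 0.1 of a read, 100.0% of values were whole reads. This tolerance was widened in proportion for values of many reads, so the check could not fail for the highest values. The design had assumed plain CPM. Groups came from the labels, and ages and gates from the study's methods. The 8 genes, the 14 gene lists and the naming rule (up to 3 genes of a list with the lowest unadjusted p below 0.05) were chosen with earlier results of these data known.

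For each comparison genes that reached a CPM of 1 in 3 or more samples were tested with limma 3.58.1 (trend) on log2(CPM + 1) in R 4.3.3, which understates the change of low genes, with limits of 0.05 on the adjusted p and 1.5 on the fold change. Alternatives were a pseudocount of 0.1, no expression filter, a filter at a mean CPM of 5, median-of-ratios scaling, TMM without immunoglobulin genes, the replicate number as a block, edgeR 4.0.16, DESeq2 1.42.0, all 12 LSK samples together, and leaving out each library. limma, edgeR and DESeq2 were first tested on simulated counts with known changes. With 3 samples against 3 an exact permutation test cannot go below 0.1. NZB and NZW alleles may map less well to mm10, which was not tested. For the interaction between LSK and CMPs, each table kept its own scale. Symbols matched 19770 of 19780 and 18421 of 18428 genes. Of the genes most like the 8 genes in pattern, 1 is not reported here.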

Additional observations from a re-analysis of the deposited data

Results flagged for a closer look

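The limma interaction test set the log2 difference between older and younger LSK in NZBW/F1 against that in C57BL/6. This difference was more positive in NZBW/F1 for 4 of the 8 genes at an unadjusted p below 0.05, against 3.92% of all genes. The interaction value was 0.78 for Spi1, 1.52 for Irf8, 1.23 for Bcl6 and 1.25 for Nfam1. After adjustment over all genes the limma value was 0.976 for each of them. The log2 difference between F1-L and F1-P in LSK was also set against that in CMPs. It was more positive in LSK for 2 of the 8 genes at an unadjusted p below 0.05, against 7.90% of all genes. The interaction value was 2.52 for Bcl6, with a limma adjusted p of 0.309, and 2.05 for Nfam1, with a limma adjusted p of 0.55. The same F1-L and F1-P LSK libraries enter both interactions, so the results for Bcl6 and Nfam1 are not separate observations.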

How the results depend on the processing

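Of the values of the 8 genes under settings other than leaving out 1 library, 556 kept direction and side of the thresholds, 17 passed newly, 11 no longer passed and 8 reversed, and leaving out 1 library gave 381, 8, 11 and 32 such values. Why counts moved was not tested, beyond the smaller number of samples or genes that a setting leaves. Whether the replicate numbers pair the samples could not be settled, and the main fits did not pair them. Same-numbered samples had correlations of their deviations of −0.491 to 0.684. These were 0.363, 0.322 and 0.046 in F1-P vs B6-Y, 0.507, −0.363 and 0.381 in B6-O vs B6-Y, and −0.491, −0.375 and 0.684 in CMPs. With the replicate number as a block, 6 of the 8 genes passed in F1-P vs B6-Y (Runx1 in place of Bcl6), 2 had an unadjusted p below 0.05 in CMPs, and 0 of all genes passed in F1-L vs F1-P of LSK or of CMPs, against 4 and 1 without it.

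The count tests gave other totals. For F1-L vs F1-P in LSK, the likelihood ratio test of edgeR gave 3 of the 8 genes and 659 of all genes, DESeq2 3 and 734, median-of-ratios scaling 2 of all genes, and the fit of all 12 LSK samples 26. For B6-O vs B6-Y, all genes past the thresholds numbered 115 by the likelihood ratio test, 207 by DESeq2, 13 with all 12 samples and 1 with TMM without immunoglobulin genes. For F1-L vs B6-O, 1 of the 8 genes passed by the likelihood ratio test, DESeq2 or all 12 samples, and 978 of all genes with a mean CPM of at least 5, against 1667. In the age interaction 10 and 29 of all genes passed by the likelihood ratio test and DESeq2. In CMPs DESeq2 called 1 of the 8 genes and 351 of all, the likelihood ratio test called 318 of all, and a mean CPM of at least 5 left 0. Of the 8 genes, 2 (quasi-likelihood), 3 (likelihood ratio) and 4 (DESeq2) had an unadjusted p below 0.05 in CMPs, and 4, 4 and 5 in the LSK against CMP difference, where the last pair each called 1 of the 8 genes and 443 and 438 of all. Without the libraries highest in neutrophil markers, 1 of the 8 genes passed and 2 had an unadjusted p below 0.05 in B6-O vs B6-Y (57 of all genes passed), 2 passed in F1-L vs B6-O, 1076 of all genes passed in F1-P vs B6-Y against 2331, 0 of the 8 genes had such a p in CMPs (0 of all genes passed), and 1 in the LSK against CMP difference (1 of all genes passed).

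With each library left out, the 8 genes past the thresholds numbered 0 to 1 in B6-O vs B6-Y, 0 to 2 in F1-L vs B6-O, 3 to 5 in F1-P vs B6-Y, 0 to 2 in CMPs and 0 to 2 in the LSK against CMP difference. Those at an unadjusted p below 0.05 numbered 1 to 4, 1 to 3 (F1-L vs B6-O), 0 to 5 (CMPs), 1 to 5 (LSK against CMP) and 2 to 4 in the age interaction. All genes past the thresholds numbered 0 to 25 in F1-L vs F1-P, 0 to 48 in B6-O vs B6-Y, 448 to 2285 in F1-L vs B6-O, 927 to 2229 in F1-P vs B6-Y, 0 to 1 in the age interaction, 0 to 434 in CMPs and 0 to 531 in the LSK against CMP difference. The highest counts came without B6-O replicate 3 in the C57BL/6 comparisons and without F1-P replicate 1 in CMPs, and the lowest of F1-P vs B6-Y without F1-P replicate 2.

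Small log2 fold changes reversed. In F1-L vs F1-P of LSK the range without 1 library was −0.35 to 0.05 for Gfi1, −0.40 to 0.27 for Klf4 and −0.31 to 0.22 for Id2, and without the libraries highest in neutrophil markers Klf4 was at 0.23 and Id2 at −0.46. In B6-O vs B6-Y it was −0.31 to 0.13 for Spi1, −0.20 to 0.07 for Runx1, −0.51 to 0.30 for Id2, −0.39 to 0.02 for Bcl6 and −0.32 to 0.02 for Nfam1, and both edgeR tests gave 0.03 for Spi1 and 0.04 for Id2, and DESeq2 0.00 for Id2. In F1-L vs B6-O it was −0.35 to 0.13 for Spi1 and −0.13 to 0.41 for Nfam1. In the age interaction it was −0.15 to 0.26 for Gfi1, −0.03 to 1.12 for Klf4 and −0.27 to 0.55 for Id2, which was −0.20 without the libraries highest in neutrophil markers. Gfi1 ranged from −0.26 to 0.54 in CMPs and from −0.72 to 0.09 in the LSK against CMP difference. The reads on a gene were 35 to 12213 a library, and each group had 3 samples.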
